A study of Homo sapiens with 12 samples.

Results

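The steady-state transcriptome of the established Ewing sarcoma line A673 was described from the 3 libraries taken at 0 h of an actinomycin D time course, out of 12 libraries in all. These libraries were chosen by their time label alone, and the other 9, taken after transcription had been blocked, were not used here. The labels call the cells shA673-1c and describe them as biological replicates grown in 6-well plates in medium with serum, blasticidin and zeocin, with 5 µM actinomycin D given as the treatment of all groups and 0 h as its duration in this one. What the prefix sh targets is not given in the sources used here, and no inducing agent is named. All libraries come from this 1 line, so the spread between them is that of cultures and libraries and not of tumours.

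Poly(A) RNA was sequenced as strand-specific libraries, and the deposited values are whole-number counts of reads per gene symbol. The total counts were 9867835, 10084181 and 10739324 in replicates 1, 2 and 3. Levels are given as CPM, the count scaled to a library total of 1000000. CPM grows with transcript length. Levels of different genes were therefore compared as TPM, for which each count was divided by the length of the gene's canonical transcript and the results were scaled to the same total. Means are given ± SD over the 3 libraries (n = 3). A count of 0 allows up to 3 counts, which is 0.304, 0.298 and 0.279 CPM in the 3 libraries, and this limit covers counting error only.

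Ewing sarcoma is a tumour of bone and soft tissue in which a gene of the FET family of RNA-binding proteins is joined to a gene of the ETS family of transcription factors, most often as EWSR1::FLI1. The fusion protein binds ETS sites and GGAA repeats, activates a set of genes from such repeats and represses another set, and A673 cells carry it. The cell type from which the tumour arises is debated between mesenchymal stem cells and the neural crest, and its cells express features of both.

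Of 26334 gene symbols in the table, 11708 (44.5%) had at least 1 CPM in each of the 3 libraries and 9159 (34.8%) had no count in any of them. At 10, 100 and 1000 CPM the numbers were 8818, 2220 and 70. The 927 highest genes made up 50% of all counts. The 10 highest genes held 5.08 ± 0.207% of the counts and the 100 highest 18.1 ± 0.393%. Protein-coding genes took 99.0 ± 0.0152% of the counts and long noncoding RNAs 0.526 ± 0.0093%. No single transcript dominated these libraries.

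The highest transcript was FN1, which encodes the matrix glycoprotein fibronectin, at 11069.7, 10052 and 11056 CPM. It was followed by genes of glycolysis, translation, the cytoskeleton and protein folding. GAPDH, the glycolytic dehydrogenase, had 6435, 6008 and 6224 CPM, and EEF1A1, the elongation factor that brings tRNA to the ribosome, had 5655, 5924 and 5870.2 CPM. ACTB and ACTG1, the cytoplasmic actins, had means of 5163 ± 441 and 5021 ± 894 CPM. ACTG1 stood at 5596 and 5477 CPM in replicates 1 and 2 and at 3991 CPM in replicate 3, so most of its SD came from the lower value in replicate 3. The 15 highest genes by CPM also held ENO1 (3982 CPM, glycolytic enolase), TUBB (3524 CPM, tubulin), HSPA8 (3483 CPM, chaperone), FLNA (3185 CPM, actin cross-linker), HSP90AA1 (3108 CPM), HSP90AB1 (3088 CPM, chaperone) and PKM (2943 CPM, pyruvate kinase).

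Besides FN1, MMP1 and COL1A1 act in the extracellular matrix. MMP1, an interstitial collagenase, had 3288, 2843 and 2794 CPM, and COL1A1, the alpha-1 chain of type I collagen, had 3096, 3014 and 2792 CPM. With transcript length taken into account, MMP1 was the 11th highest gene at 3849 ± 393 TPM, FN1 the 22nd at 3259 ± 211 TPM and COL1A1 the 96th at 1279 ± 73.9 TPM. COL1A2, which encodes the partner chain of COL1A1 in type I collagen, had only 35.1 ± 3.16 TPM, with no overlap between the libraries of the pair. The related stromelysin MMP3 had 3.25 ± 1.30 TPM, and MMP9, a gelatinase, had 0.217 ± 0.117 TPM.

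By TPM, the 10 highest genes were GAPDH (12344 ± 573 TPM), ACTB (7262 ± 630 TPM), ACTG1 (6669 ± 1198 TPM), TMSB10 (6596 ± 109 TPM, an actin-binding thymosin), FTL (6424 ± 903 TPM, ferritin light chain), ENO1 (5698 ± 153 TPM), RPS18 (5359 ± 168 TPM), EEF1A1 (4220 ± 58.0 TPM), RPS12 (3974 ± 218 TPM) and HSPA8 (3918 ± 482 TPM). ACTB was above ACTG1 and FTL in all 3 libraries, while TMSB10 was below ACTG1 in replicates 1 and 2 and above it in replicate 3. Short transcripts such as those of ribosomal proteins moved up on this scale: the cytosolic ribosomal protein genes took 4.32 ± 0.169% of the counts and 11.8 ± 0.316% of TPM, and 79 of 83 reached 1 CPM in all libraries.

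**Figure D1:**
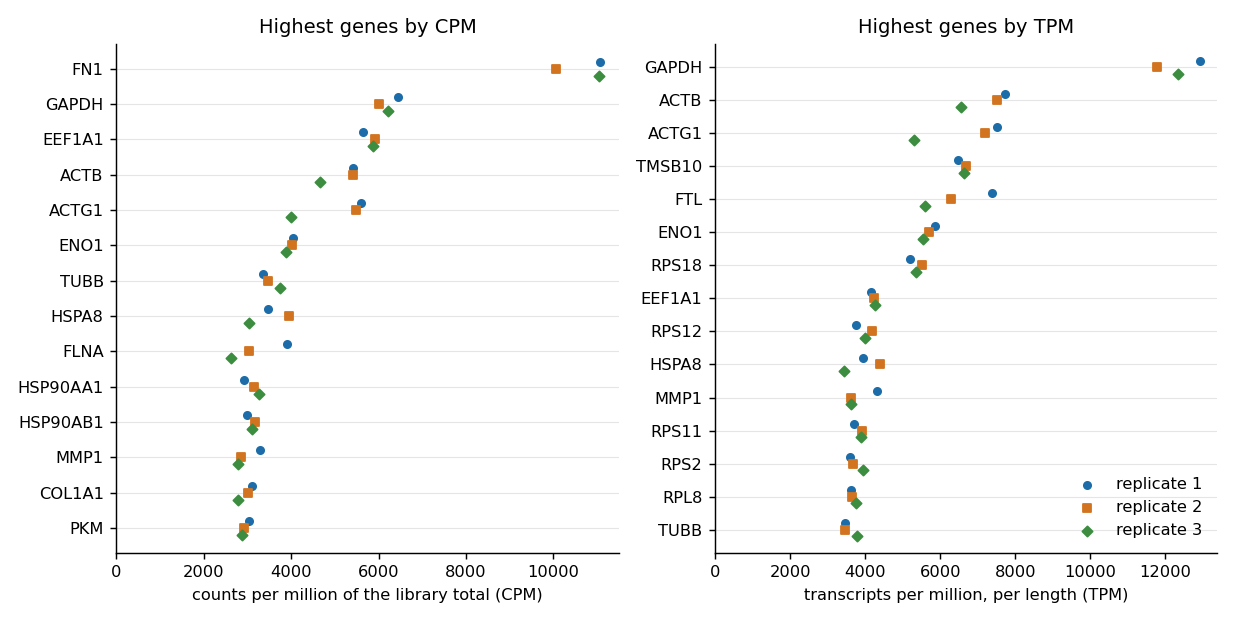
Levels of genes among the 15 highest by CPM (left) and by TPM (right) in each of the 3 libraries, with genes in falling order of the mean and both axes starting at 0. FN1 stands alone at 10052 to 11069.7 CPM on the left, GAPDH leads on the right with a mean of 12344 TPM, and ACTG1 and ACTB are lowest in replicate 3.

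The 5 transcripts that mark Ewing sarcoma were examined next, and 4 of them were detected in every library. EWSR1, the FET gene of the fusion (chr22:29268009-29300525, GRCh38), had 330, 353 and 304 CPM, and FLI1, its ETS partner (chr11:128686535-128813267), had 80.2, 84.1 and 84.5 CPM. Counts per gene do not separate the fusion transcript from the transcripts of the normal alleles, so the part of each in these values cannot be told apart. NR0B1, an orphan nuclear receptor switched on by the fusion (chrX:30304206-30309390), had 38.6, 44.7 and 35.1 CPM. NKX2-2, a homeodomain repressor of neural development and another target of the fusion (chr20:21511017-21514064), had 6.38, 7.54 and 8.10 CPM. Per length, EWSR1 was highest at 350 ± 24.2 TPM, NR0B1 (55.5 ± 6.40 TPM) and FLI1 (55.2 ± 1.14 TPM) did not differ beyond their spread, and NKX2-2 was lower at 8.81 ± 0.990 TPM. These levels depend on the length used: with the union of all exons, EWSR1 had 151, NR0B1 93.6, FLI1 48.9 and NKX2-2 16.4 TPM, so that NR0B1 stood above FLI1.

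CD99, which encodes the surface glycoprotein stained in the diagnosis of Ewing sarcoma (chrX:2691187-2741309), had 0, 0 and 0 counts. CD99 therefore did not mark the line in this table. The same held for its neighbourhood: all 25 genes of the table that the annotation places in both the X and the Y copy of the pseudoautosomal regions had no count in any library. Among them was SLC25A6, an ADP/ATP carrier of mitochondria, while its relatives outside these regions, SLC25A5 and SLC25A4, had 391 ± 20.6 and 39.1 ± 1.52 CPM. CD99L2, the paralogue of CD99 further along the X chromosome, had 75.3, 65.2 and 80.2 CPM. XG, which crosses the boundary of the pseudoautosomal region, had 3, 5 and 5 counts. Why the whole region was listed at 0 was not tested.

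Of 25 genes known to be activated through EWSR1::FLI1, 23 had at least 1 CPM in all libraries, and 27 of 30 did with the markers included. The share was 44.5% for all genes in the table and 58.8% for protein-coding genes outside readthrough and pseudoautosomal entries. CAV1, the coat protein of caveolae, was highest of the activated genes at 2435, 2939 and 2365 CPM (2674 ± 297 TPM). CCND1, the cyclin that drives entry into S phase, had 1664, 1747 and 1801 CPM (1045 ± 35.6 TPM). On the TPM scale, both lay above all other activated genes in every library. The tyrosine kinase JAK1 had 399 ± 20.0 TPM, and ID2, an inhibitor of basic helix-loop-helix factors, had 348 ± 29.3 TPM.

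The remaining activated genes covered a wide range. LIPI, a membrane-bound lipase known as an Ewing tumour antigen, had 114, 141 and 144 CPM. STEAP1, a metalloreductase of the cell surface, had 57.3, 70.2 and 62.4 CPM, and PRKCB, a protein kinase C, had 103, 131 and 151 CPM. The histone methyltransferase EZH2 had 146, 147 and 154 CPM, the smallest relative spread among the genes of this list named here. SOX2, a factor of stem and neural progenitor cells, had 32.9, 39.4 and 41.6 CPM. Low members were TERT, the catalytic subunit of telomerase, at 8.21, 5.85 and 8.38 CPM and PAX7, a factor of muscle progenitors, at 3.24, 4.96 and 4.84 CPM. The 2 genes below 1 CPM were CCK, a gut and brain peptide, with 9, 8 and 3 counts, and XG. EWSAT1, a long noncoding RNA named for its association with the tumour, lay around the detection level at 0.507, 0.893 and 1.40 CPM.

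GGAA repeats are the sites from which the fusion protein acts, so the promoters of these genes were searched for 2 repeats in tandem, GGAAGGAA on either strand, from 250 bases before to 50 after the start of the gene (RefSeq, GRCh38.p14). Of the 18 activated genes with a window in that set, 2 held the motif (11.1%), and of 27305 genes in all 4.50% did. None of the 4 markers with a window held it. Among the activated genes with the motif was SOX6, a factor of cartilage and neural development transcribed here at 16.3 TPM. Its stretch is shown as an example. It runs 5′ to 3′ on the gene's strand, with the motif, read on the opposite strand, in capitals.
SOX6, chr11:16356556-16356585, minus strand: cgatctctgttTTCCTTCCcctgtgctcac
A match in this window is a description of the sequence, and most repeats to which the fusion protein binds lie further from gene starts.

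Of 5 genes known to be repressed through the fusion, 4 were above 1 CPM, beside 58.8% of other protein-coding genes. LOX, which cross-links collagen, had 208, 183 and 141 CPM, and TGFBR2, a receptor for TGF-beta, had 112, 104 and 100.2 CPM. FOXO1, a factor that restrains proliferation, had 6.89, 6.94 and 6.42 CPM, and IGFBP3, which binds insulin-like growth factors, had 1.82, 1.29 and 1.58 CPM. The Wnt inhibitor DKK1 had no count, while DKK2, a relative on the list of activated genes, had 75.3, 91.2 and 103 CPM. The list thus spanned from no count to over 100 CPM, and these libraries include no cells without the fusion to compare with.

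Beside EWSR1, its relative TAF15 of the FET family had 96.8 TPM. Of the ETS genes that take part in Ewing fusions, FLI1 was followed by ETV1 at 33.5 TPM and ETV4 at 17.98 TPM. FEV had 0.608, 0.298 and 0.745 CPM, and ERG, the nearest relative of FLI1, had a single count in replicate 1 and none in the other libraries.

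**Figure D2:**
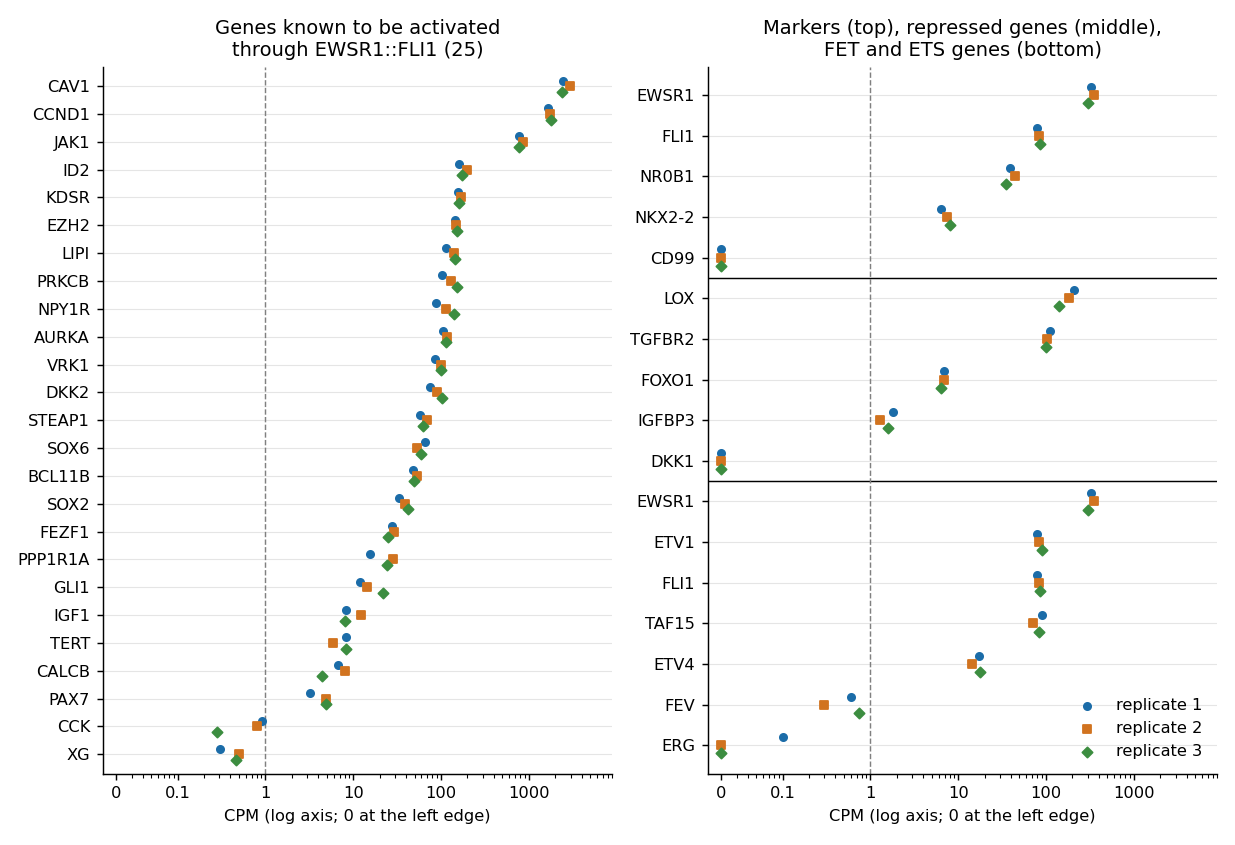
Levels in CPM (log axis, 0 drawn at the left edge) of the genes known to be activated through EWSR1::FLI1 (left) and of the Ewing markers, the repressed genes and the FET and ETS genes (right), with 1 point per library and a dashed line at 1 CPM. CAV1 and CCND1 lead the activated genes, 23 of 25 lie above the line, and CD99 and DKK1 sit at 0 in all 3 libraries.

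Oncogenes and growth receptors were mostly detected, with 27 of 31 at 1 CPM or more, beside 58.8% of other protein-coding genes. Per length CDK4, the kinase partner of cyclin D, was highest at 382 TPM (277, 283 and 279 CPM), followed by the survival kinase AKT1 (204 TPM). MYC, a general driver of growth, had 143, 147 and 127 CPM, whereas its relatives MYCL and MYCN had 1.66 ± 0.0724 and 1.07 ± 0.207 CPM. IGF1R, the receptor on which Ewing cells depend for growth signals, had 64.5, 47.7 and 49.5 CPM. Its ligand IGF1, an activated gene, had 8.31, 12.3 and 8.01 CPM. The other ligand, IGF2, had no count, and neither did the readthrough entry INS-IGF2, in which it is the second gene. PDGFRB had 185 ± 28.7 CPM and PDGFRA 0.583 ± 0.252 CPM.

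Of 16 tumour suppressors, 14 reached 1 CPM, beside 58.8% of other protein-coding genes. The highest per length were CDKN2C, a CDK4 inhibitor (141 TPM), STAG2, a subunit of cohesin (115 TPM), and SMARCB1, a subunit of the BAF remodelling complex (65.0 TPM). The 2 without a count in any library were CDKN2A and CDKN2B, neighbouring genes of CDK inhibitors on chromosome 9, and the antisense transcript CDKN2B-AS1 had none either. MTAP, the next gene along, had 609, 621 and 664 counts, or 61.7, 61.6 and 61.8 CPM. CDKN1A, another inhibitor of CDKs, had 28.1 ± 4.14 CPM.

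Cycling genes were among the most completely detected. Of 25 proliferation genes, 24 had at least 1 CPM, beside 58.8% of other protein-coding genes, and 20 had at least 100 CPM. After CCND1, the highest per length were PCNA, the sliding clamp of replication (903 TPM), and MCM7, a subunit of the replicative helicase (567 TPM). MKI67, the proliferation antigen, had 637, 494 and 641 CPM. CCND2, a sister of CCND1, was the lowest member and lay below 1 CPM with 0.912, 0.793 and 0.279 CPM.

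The lineage of the cells was then read from marker lists of 11 tissues, beside the 58.8% of other protein-coding genes at 1 CPM. Mesenchymal and fibroblast markers were the best represented, with 12 of 15 at 1 CPM or more and a summed level of 19137 to 20101 CPM. FN1, VIM, an intermediate filament of mesenchymal cells (3212 TPM), and ACTA2, smooth muscle actin (1683 TPM), led the list. The matrix proteoglycans DCN and LUM and the receptor PDGFRA, which are typical of connective tissue fibroblasts, were the 3 members below 1 CPM, with LUM lowest at 0.187 TPM.

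Neuronal and neuroendocrine markers were split, with 7 of 12 at 1 CPM or more, close to the 58.8% of protein-coding genes outside readthrough and pseudoautosomal entries. UCHL1, a ubiquitin hydrolase of neurons, had 621, 611 and 633 CPM (1436 TPM). TUBB3, neuronal tubulin, had 540, 453 and 471 CPM (729 TPM), and NEFM, a neurofilament, had 46.9 TPM. CHGA, a protein of secretory granules, had no count. Neural crest and glial markers reached 1 CPM in 4 of 10 cases, near the 44.5% of all genes but below the 58.8% of other protein-coding genes. They were led by NGFR, a neurotrophin receptor (21.4 TPM), and TFAP2A, a factor of neural crest (14.6 TPM). SOX10, the defining factor of migrating crest and glia, had no count, nor did S100B.

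Markers of other tissues were largely absent, apart from single genes. In the epithelial list, 3 of 13 members reached 1 CPM, and KRT18 was far above the rest at 329, 378 and 248 CPM (573 TPM). KRT8, its usual filament partner, had 12.2, 11.4 and 13.1 CPM (17.5 TPM). E-cadherin (CDH1) had 1 count in replicate 1, and the factor GRHL2 and the basal keratin KRT14 had none. In the endothelial list 1 of 10 members, the sialomucin EMCN, reached 1 CPM, with 61.2, 51.9 and 69.7 CPM, and CLDN5 had no count. In the blood list 4 of 13 members did: LCP1, an actin bundler of leukocytes (56.2, 42.9 and 30.3 CPM), HBB, a globin (6.79, 4.66 and 4.75 CPM), CORO1A and CD34. The pan-leukocyte antigen PTPRC, CD3E, LYZ, SPI1, GATA1 and HBG1 had no count.

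Skeletal muscle markers reached 1 CPM in 2 of 10 cases, PAX3 (16.2 TPM) and MYH3 (1.25 TPM), and the muscle determination factors MYOD1 and MYOG had no count. Bone and cartilage markers did in 4 of 9 cases, near the 44.5% of all genes but below the 58.8% of other protein-coding genes. They were led by ALPL, alkaline phosphatase (17.0 TPM), SOX9 (7.33 TPM) and RUNX2 (3.65 TPM), while the osteoblast factor SP7 had no count. Osteocalcin (BGLAP) had none either, but it is the second gene of a readthrough entry, a class of which few reached 1 CPM in this table. SOX2 was the only 1 of 7 pluripotency and germ cell markers to reach 1 CPM, and NANOG, LIN28A, DPPA4 and DAZL were without a count. None of 7 hepatocyte and none of 5 melanocyte markers reached it, and ALB, APOB, TTR, FGB, CYP3A4, MLANA, TYR and DCT had no count in any library.

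**Figure D3:**
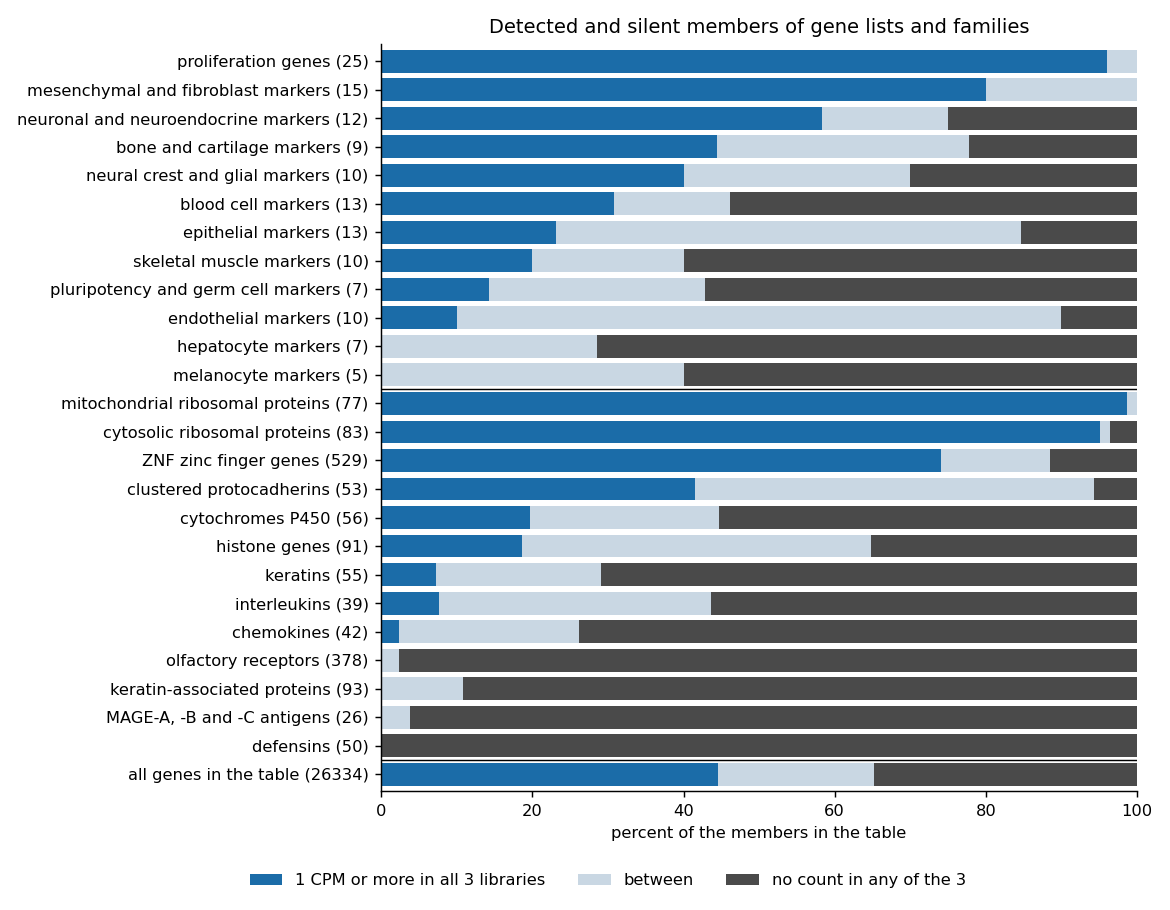
Share of the members of 12 gene lists (above the upper line), of 13 gene families (below it) and of all genes in the table (bottom bar) with at least 1 CPM in all 3 libraries, with no count in any, or between, with the number of members in brackets. Proliferation genes and mesenchymal markers are mostly detected, while olfactory receptors, keratin-associated proteins, MAGE antigens and defensins are mostly without a count, beside 44.5% and 34.8% for all genes.

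Surface antigens reached 1 CPM in 21 of 25 cases, beside 58.8% of other protein-coding genes. B2M, the invariant chain of HLA class I, had 1111, 1303 and 1281 CPM (3327 TPM), followed by the tetraspanins CD63 (851 TPM) and CD81 (262 TPM). Of the class I heavy chains, HLA-C had 103 TPM and HLA-B 20.8 TPM. Genes of class II presentation, HLA-DRA and CD74, had no count.

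Paralogues of general metabolism differed widely in level. Of 26 glycolytic isozymes 17 reached 1 CPM, near the 58.8% of other protein-coding genes, and GAPDH, ENO1 and PKM took the first places. LDHB, the lactate dehydrogenase subunit typical of heart, had 2252 TPM and LDHA, that of muscle, 812 TPM. The muscle and testis forms PGAM2 and GAPDHS had no count. In other families of tissue-restricted paralogues, 17 of 24 genes reached 1 CPM, not far above the 58.8% of other protein-coding genes. TMSB10 had 6596 TPM against 1305 TPM for TMSB4X, and COX4I2, TUBB1 and CKM had no count.

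Of 39 developmental transcription factors, 29 had at least 1 CPM, beside 58.8% of other protein-coding genes. FOXM1, a factor of mitotic genes, was highest at 175 TPM, followed by ZEB2, a repressor of epithelial genes (54.9 TPM), and SOX11, a factor of neural progenitors (42.5 TPM). OTX2, a factor of forebrain and eye, had 30.9, 36.6 and 39.4 CPM. PRRX1, a limb mesenchyme factor, joined SOX10 among the members without a count, and TFAP2B was the lowest of the others at 0.0140 TPM.

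HOX genes, which set position along the body axis and lie in 4 clusters, differed by cluster. For comparison, 44.5% of all genes and 58.8% of other protein-coding genes reached 1 CPM. In HOXD 7 of 9 genes reached 1 CPM, and the posterior genes were highest: HOXD13 had 67.4, 72.4 and 69.1 CPM, HOXD11 60.0, 50.8 and 58.1 CPM, and HOXD10 59.7, 50.6 and 56.7 CPM. Between HOXD11 and HOXD13, HOXD12 had 1, 1 and 0 counts. In HOXC 7 of 9 genes reached 1 CPM, led by HOXC8 (24.5, 21.2 and 16.3 CPM) and HOXC6 (18.4, 18.9 and 18.2 CPM). In HOXB 5 of 10 did, which lies between these shares, led by HOXB13 and HOXB7 at 8.53 ± 1.01 and 7.80 ± 1.96 CPM. In HOXA only HOXA10 and HOXA7 of 11 did, at 3.43 ± 0.730 and 1.75 ± 0.177 CPM, and HOXA2, HOXA3, HOXA5 and HOXA9 had no count, HOXA9 being the second gene of a readthrough entry with HOXA10. Per length HOXD11 (84.2 ± 8.22 TPM), HOXD10 (79.5 ± 7.56 TPM) and HOXD13 (73.4 ± 1.81 TPM) were highest, and each lay above all genes of the other clusters. HOXD11 was above HOXD10 in all 3 libraries, whereas the libraries of HOXD13 overlapped with those of both.

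**Figure D4:**
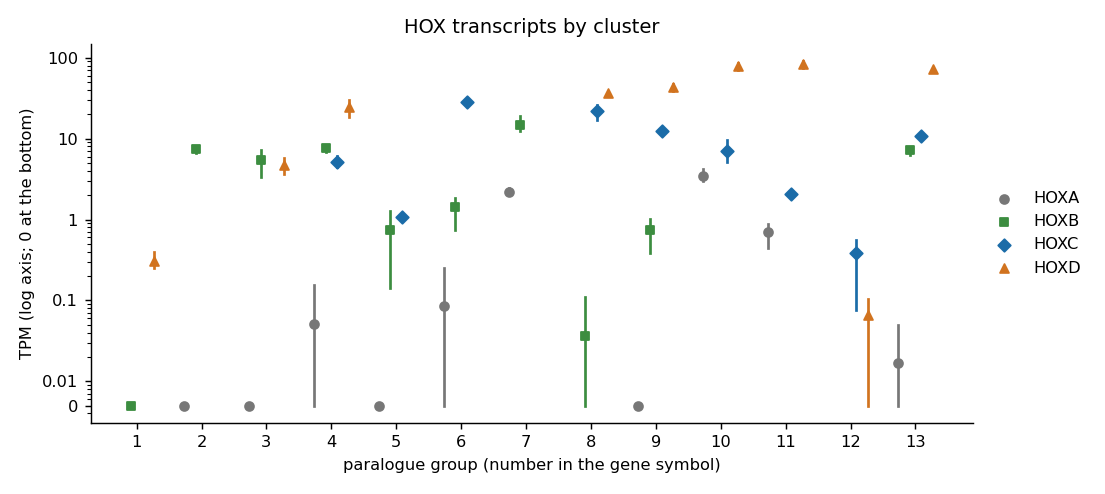
Mean TPM (log axis, 0 at the bottom) of the HOX genes by paralogue group and cluster, with lines from the lowest to the highest library. HOXD10, HOXD11 and HOXD13 lie highest at 73.4 to 84.2 TPM, HOXD12 drops out between them, and the HOXA genes do not exceed 3.43 TPM on average.

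Several families were silent as a whole or in most members, beside 34.8% of all genes with no count. Of 378 olfactory receptors 369 (97.6%) had no count, and none reached 1 CPM in all libraries. OR4A16, the highest of them, had 0.709, 0.793 and 1.02 CPM. All 50 defensins, all 13 alpha interferons and all 18 late cornified envelope genes had no count. The same was true of 83 of 93 keratin-associated proteins, 25 of 26 MAGE antigens and 40 of 44 GAGE, PAGE, XAGE and SSX antigens, which are testis genes often reactivated in tumours. SSX7 was the highest of the latter with 0.912, 1.09 and 1.40 CPM. Of 55 keratins 39 had no count, and the 4 at 1 CPM or more were KRT18, KRT80 (56.2 ± 9.59 CPM), KRT10 (13.7 CPM) and KRT8.

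Secreted signals of immunity were mostly low or uncounted too, beside 34.8% of all genes with no count and 44.5% at 1 CPM. Of 42 chemokines 31 had no count, and CCL2, a monocyte attractant, was the only one at 1 CPM or more in all libraries with 8.11, 7.64 and 6.89 CPM. Of 39 interleukins 22 had no count, and IL17D, IL16 and IL1A reached 1 CPM with 2.81, 1.92 and 1.46 CPM on average. Bitter and sweet taste receptors differed from the olfactory ones, with 13 of 27 (48.1%) at no count, although none reached 1 CPM in all libraries.

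Other families ranged from above to below the 44.5% of all genes that reached 1 CPM. Of 529 ZNF zinc finger genes 392 (74.1%) did, led by ZNF664 (348 CPM) and ZNF146 (293 CPM). Among 53 clustered protocadherins, adhesion proteins of neurons, PCDHGC3 (62.5 CPM) and PCDHB2 (47.0 CPM) were highest. Of the 53, 22 (41.5%) reached 1 CPM, close to the 44.5% and below the 58.8% of other protein-coding genes. Of 56 cytochromes P450, 11 (19.6%) did and 31 (55.4%) had no count, against 34.8% of all genes. CYP51A1, an enzyme of cholesterol synthesis, was highest at 188, 189 and 226 CPM. Of 91 histone genes 17 (18.7%) did, led by H2AFZ and H3F3B, replacement histones with poly(A) tails. Most replication-dependent histone transcripts lack such tails, and whether poly(A) selection lowered this share was not tested.

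Long noncoding RNAs were few in amount but several were steady. Of a list of 24 named ones 19 reached 1 CPM, beside 270 of 2875 long noncoding entries in all. Within this list, host genes of small nucleolar RNAs were highest per length, GAS5 at 562 TPM, SNHG1 at 378 TPM and SNHG5 at 251 TPM. Outside it, LRRC75A-AS1 (3450 ± 323 TPM) and LINC00674 (796 ± 99.7 TPM) stood above GAS5 per length. LINC00674 had only 49.9 CPM, and its TPM rests on a canonical transcript of 160 bases. LRRC75A-AS1 had 600 CPM and a canonical transcript of 443 bases. NORAD, which binds Pumilio proteins and is listed as LINC00657, had 326, 322 and 322 CPM. MALAT1 and NEAT1, which stay in the nucleus, had 84.5 ± 12.7 and 67.5 ± 5.98 CPM. H19 and HOTTIP had no count.

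Some transcripts that dividing cells need were nevertheless listed at 0. H3F3A, a histone gene that encodes the same protein as H3F3B, had no count in any library, and H3F3B had 396, 439 and 403 CPM. Of the ribosomal proteins, RPL21 had no count, and RPS10 (72.1 TPM), RPL17 (31.4 TPM) and RPL36A (23.8 TPM) were far below the median of the family, 1220 TPM. The last 3 share their locus with a readthrough entry, a transcript that joins 2 neighbouring genes under a double name. The table holds 120 such entries, of which 102 had no count and none reached 1 CPM in all libraries. Of the genes named first in them, 75 of 120 (62.5%) reached 1 CPM, against 58.8% of the other protein-coding genes. Of the genes named second, 15 of 120 (12.5%) did, and their median level was 0.0340 CPM. The rule by which the authors assigned reads shared by overlapping or near-identical entries is not given in the sources used here, so levels of such genes are uncertain.

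The 3 replicates were close to one another. Over 12143 genes that averaged 10 counts or more, the common biological coefficient of variation (CV) was 0.0893, and Pearson's r of log2 CPM between pairs of libraries, across 9032 genes that are not independent replicates, lay between 0.988 and 0.991. Among 2391 genes at 100 CPM or more, the median difference within a pair was 1.06-fold to 1.07-fold, and the number of genes that differed by more than 2-fold was 1, 4 and 0. All pairs differed by more than sampling noise, with a chi-square per degree of freedom of 6.58, 8.495 and 6.95, so none of the libraries was treated as a repeat of another. The median CV fell with abundance, from 19.03% at 1 to 10 CPM to 7.86%, 5.63% and 5.44% in the bins above. Counting error alone gives 16.7%, 5.18%, 2.40% and 0.797%, near the median CV in the lowest bin and well below it in the 2 highest. The part of the spread that comes from counting was not estimated.

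The genes with the largest CV among those of at least 50 CPM differed in the library that stood apart. TNXB, DST, AHNAK, SYNE2 and AHNAK2, which encode giant proteins of the matrix, cytoskeleton and nuclear envelope, have canonical transcripts of 13097 to 24709 bases and were highest in replicate 1. AHNAK, for example, had 1198, 657 and 586 CPM, and DST had 295, 135 and 168 CPM. ANKRD1, THBS1 and CTGF, which respond to YAP, TGF-beta and serum, were lowest in replicate 3. THBS1, a matricellular inhibitor of vessel growth, had 131, 82.1 and 55.96 CPM, and CTGF, a matricellular growth factor, had 245, 199 and 103 CPM. SREBF1, a regulator of lipid synthesis, was highest in replicate 3 with 66.5, 79.8 and 133 CPM.

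Transcript length moved with the difference between replicates 1 and 2 over all genes of at least 10 CPM. For the 465 genes with canonical transcripts of up to 1000 bases, the median log2 ratio of replicate 1 to replicate 2 was -0.06. It was 0.06 for 987 genes of 6000 to 8000 bases and 0.23, or 1.17-fold, for 440 genes of more than 10000 bases, of which 66.4% were lowest in replicate 2. Replicate 3 did not follow length, with medians between 0.01 and 0.02 on the log2 scale against the mean in all bins. For the longest genes, the SD over the 3 libraries therefore holds a component that goes with length, and its source was not tested.

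**Figure D5:**
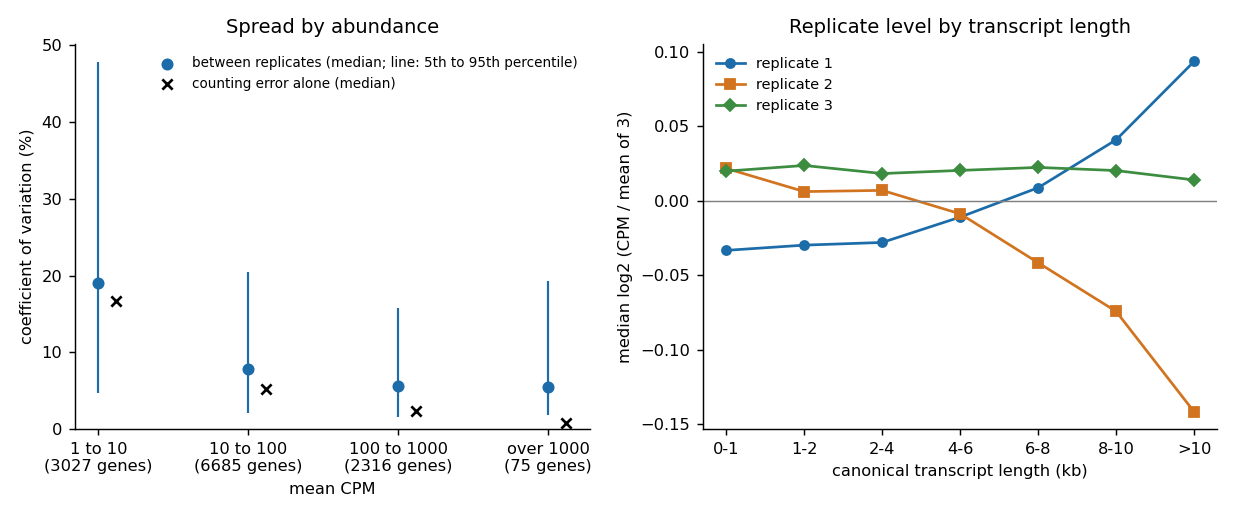
Left, the CV over the 3 libraries by abundance (points, median; lines, 5th to 95th percentile over genes) beside the CV from counting error alone (crosses). Right, the median log2 ratio of each library's CPM to the mean of the 3 by length of the canonical transcript in kb: replicate 1 rises to 0.09 and replicate 2 falls to -0.14 for transcripts over 10000 bases, while replicate 3 stays level.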

How the data were processed

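Raw, whole-number counts per gene symbol were deposited by the authors for 12 poly(A)-selected, strand-specific libraries of A673 cells. The submitters' processing notes name FastQC, STAR and hg19, without versions or roles. The study's methods mention quantification with Salmon against Ensembl transcripts, followed by tximport, for TruSeq reads, but not for these libraries by name. Which route made these counts is not given in the sources used here. The 3 libraries at 0 h were taken by their labels, and 0 columns of the table matched no sample. CPM is the count scaled to a column total of 1000000. TPM used lengths of Ensembl canonical transcripts from GENCODE version 44 (GRCh38), matched by symbol or alias for 24418 genes, which held 99.6% of the counts in each library. Coordinates are from the same annotation. Promoter windows are from RefSeq. With 1 group there was no test between groups. Pairs of libraries were compared with a chi-square statistic over genes of at least 20 counts per pair. The CV was estimated with edgeR 4.0.16 (TMM factors, intercept only, R 4.3.3) and checked on simulated data. Alternatives used DESeq2 1.42.0 size factors, other thresholds, TPM, union-of-exon lengths and fewer libraries.

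The lists and families, and the members of this report, were chosen with earlier results of these data known. Named genes were the 5 markers, the 15 highest by CPM and 10 by TPM, the 3 highest, the lowest and the uncounted members of 23 lists, the 10 most variable at a mean of 50 CPM or more, and the members of 33 families at 1 CPM or more where these were 5 or fewer, otherwise the 2 highest. Other genes named in the text were chosen after their values were seen. Mitochondrially encoded genes were not analysed here, and some genes and a sequence that these rules select are not reported here.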

Additional observations from a re-analysis of the deposited data

How the results depend on the processing

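Of 59 values recomputed under another choice, 49 moved by less than 1 SD over the libraries, or for counts by less than 1.5 times, 10 moved further and 0 changed direction. Per length in place of CPM, the number of genes that make up 50% of the total was 527, the 100 highest genes held 26.1% of it and the cytosolic ribosomal proteins 11.8%. Leaving out each replicate in turn gave a common CV of 0.0806 to 0.0995, with the highest value without replicate 2. Of the 5 markers, 3 to 5 kept their place by TPM when a replicate was left out, since NR0B1 and FLI1 changed places without replicate 1 and without replicate 2. With the union of all exons as length, the TPM of EWSR1 was 151, of FLI1 48.9, of NR0B1 93.6 and of NKX2-2 16.4, in the same order. 1 alternative, olfactory receptors without the genes that have no length, was chosen after seeing the data and left 367 with no count. Alternatives without mitochondrially encoded genes, and the share of these genes, were not run, since they were not analysed here. No paired analysis was possible because the description holds 1 group and no comparison.

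Depth limits the low end: a count of 0 allows up to 3 counts, about 0.3 CPM, in each library, so a transcript without a count is limited to that level and is not established as absent. Values per length rest on 1 transcript per gene from a later genome build than the one named in the processing notes, and a gene that uses a shorter or longer form is misplaced on that scale. The number of replicates, 3, gives each SD little precision.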

Other observations

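A pair of further gene groups separated replicate 3 from replicates 1 and 2. Both lists were assembled after the values of some members had been seen, so their counts describe these libraries only. Of 12 targets of YAP and serum response, all above 10 CPM, 12 were lowest in replicate 3, against 27.1% of the 9076 genes with a mean of at least 10 CPM. Their median log2 ratio of replicate 3 to the mean of the other two was -0.79, with a range from -1.40 to -0.29, beside 0.03 for all genes. CYR61, a matricellular protein and common readout of YAP, had 172, 138 and 91.6 CPM, AXL, a receptor tyrosine kinase, had 225, 207 and 120 CPM, and TAGLN, an actin-binding protein of contractile cells, had 502, 472 and 312 CPM.

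Of 12 genes of sterol and fatty acid synthesis, 11 were highest in replicate 3, against 41.5% of all genes at that level, with a median log2 ratio of 0.32. SCD, which desaturates fatty acids, had 1379, 1536 and 1972 CPM, and INSIG1, a sterol sensor of the endoplasmic reticulum, had 78.2, 74.6 and 112 CPM. Replicate 3 had the highest total count of the 3 libraries, 10739324, and the source of these differences was not tested.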
